A study of Mus musculus with 6 samples.

Results

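Complex I of the respiratory chain was examined through the 45 nuclear genes whose symbols carry the Nduf prefix followed by a, b, c, s, v, af or ab and a number, out of 53733 named rows in the count table. These 45 genes comprised 37 structural subunits and 8 assembly factors, whose symbols begin with Ndufaf. All 45 passed the filter on low counts and were tested. Expression was measured in a mouse acute myeloid leukaemia line made by transducing foetal liver cells with 2 retroviral vectors, one that constitutively expresses luciferase and the fusion oncogene MLL-AF9 and one that expresses DsRED and FLT3-ITD, an activated receptor tyrosine kinase, from the doxycycline-dependent TRE-tight promoter. All mice were immunodeficient NSG recipients, whose own marrow cells remained present, and all were kept on doxycycline during 96 h of engraftment. In the OFF group (3 mice) doxycycline was then removed from food and water for 48 h. In the ON group (3 mice) it was continued. Removal of doxycycline and loss of FLT3-ITD therefore coincided, and their effects cannot be told apart in these groups. Viable leukaemic cells sorted from bone marrow gave 1 library of mRNA 3′ ends per mouse. The line is a single engineered line, and the labels do not give its number of clones, so the p-values measure the spread between mice bearing that line.

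Complex I, the NADH:ubiquinone oxidoreductase, is the entry point of electrons from NADH into the respiratory chain and pumps protons across the inner mitochondrial membrane. Its matrix arm carries the flavin and the iron-sulphur clusters, and its membrane arm carries the proton channels. Core subunits perform catalysis, accessory subunits surround and stabilise them, and assembly factors join modules together or modify subunits without remaining in the finished enzyme. The membrane core subunits are encoded by the mitochondrial genome. Oxidation of NADH by this enzyme also supplies the NAD+ that cytosolic and mitochondrial dehydrogenases use, among them the first enzyme of serine synthesis, the pathway named in the study's title.

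One gene stood far outside the others. Ndufaf4, an assembly factor of the matrix arm, fell 3.11-fold after doxycycline withdrawal, whereas no structural subunit changed by 2-fold. Of the 37 structural subunits, 4 fell (Ndufa12, Ndufab1, Ndufc2 and Ndufb4) and 4 rose (Ndufb11, Ndufa13, Ndufa3 and Ndufv3). The other 29 did not pass a threshold of 0.05 on the p-value of edgeR's quasi-likelihood test, adjusted by Benjamini-Hochberg over 13652 tested rows. That is 21.6% of the subunits called, against 34.8% of all tested rows, of which 17.3% were higher and 17.5% were lower in OFF. Of the 8 assembly factors, 2 fell (25%) and none rose. At an unadjusted p under 0.05, 8 structural subunits and 4 assembly factors passed, against 44% of all tested rows. DESeq2's Wald test called 3 subunits lower, 2 subunits higher and 1 assembly factor lower, and likewise no assembly factor higher.

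The median log2 fold change, OFF minus ON, was -0.04 over the structural subunits and -0.45 over the assembly factors, or -0.44 without Ndufaf4, against 0.0043 over all tested rows. With a minimum of 10 CPM in 3 libraries, which left 5 assembly factors, their median was -0.19, and without OFF replicate 2 that of the subunits was 0.0014. The median size of the change, regardless of sign, was 0.14 for the subunits and 0.33 for all tested rows. The subunits were measured with a median SE of 0.12 on the log2 scale, the assembly factors with 0.19 and all tested rows with 0.16. Among the 29 subunits that did not pass, the 95% intervals of the log2 fold change reached down to -0.47 and up to 0.57. In 19 of 45 members no OFF library lay within the range of the ON libraries or the reverse (42.2%), against 48.3% of all tested rows. Summed over the structural subunits, the level was 2044, 1992 and 2261 CPM (counts scaled to library size with TMM factors) in OFF libraries and 2195, 2115 and 2104 CPM in ON libraries, so that the groups overlapped. Summed over the assembly factors, it was 162, 139 and 144 CPM in OFF and 201, 195 and 198 CPM in ON. Without Ndufaf4 these sums were 146, 127 and 132 CPM in OFF and 160, 154 and 158 CPM in ON. Their largest term was Ndufaf3, which did not pass (mean 67.3 CPM in OFF and 77.6 CPM in ON). In sorted bulk samples a lower level may come from fewer cells of a type or from less RNA per cell, which cannot be told apart.

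**Figure D1:**
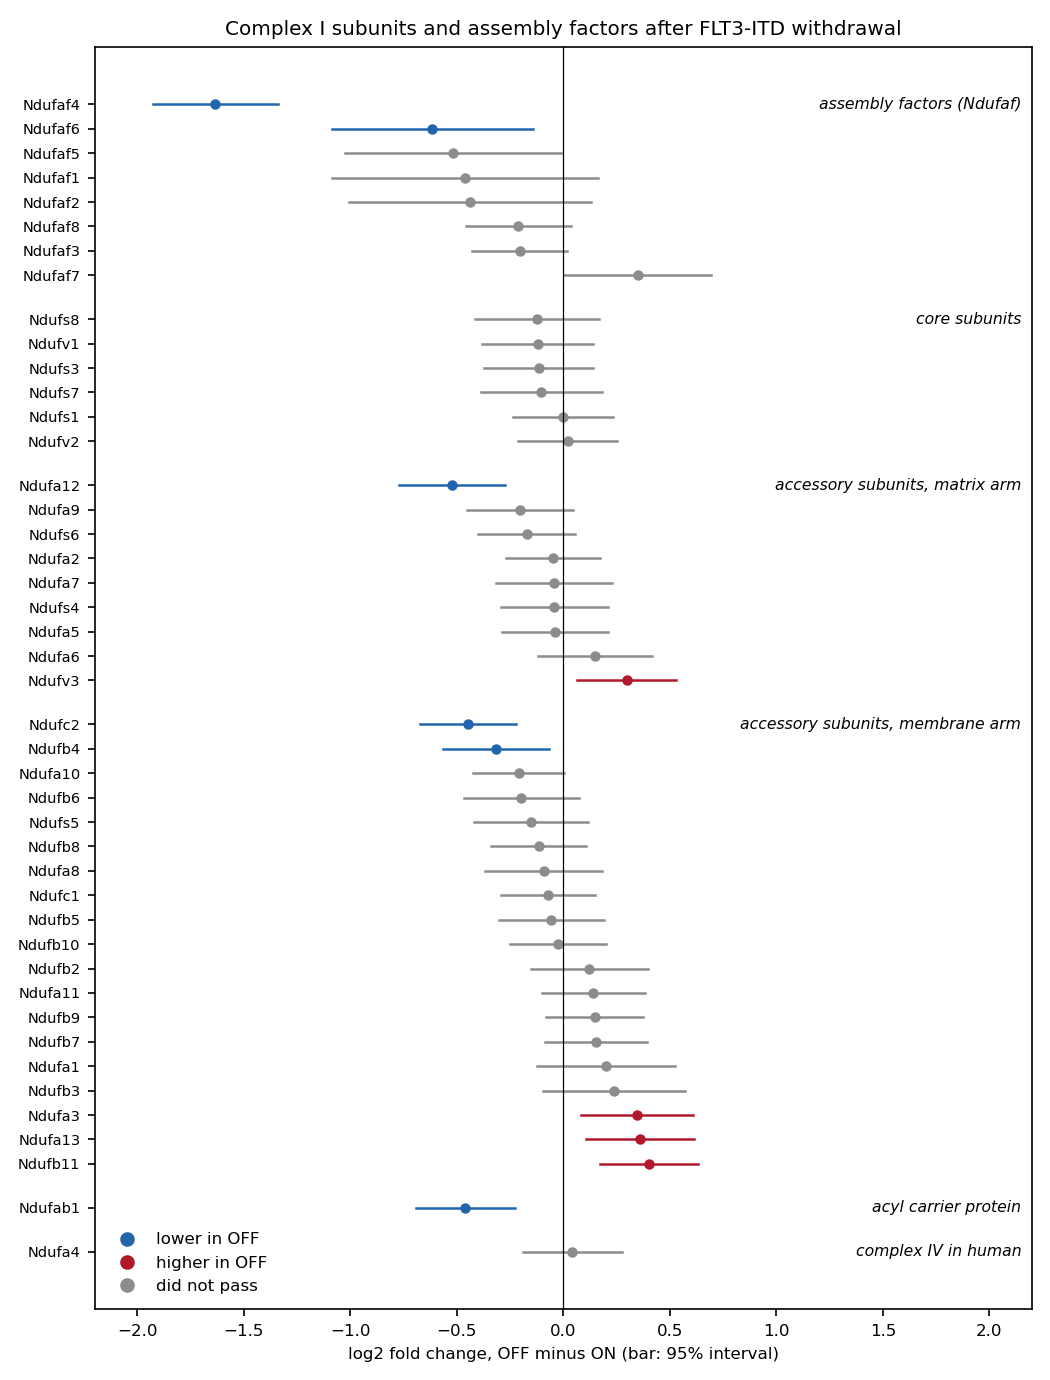
Log2 fold change, OFF minus ON, of 44 of the 45 members (points) with 95% intervals (bars), grouped by place in the complex and sorted within each group. Ndufaf4 lies at -1.64 with an interval from -1.93 to -1.34, while every structural subunit drawn lies between -0.52 and 0.40.

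The 6 libraries held 8347588 to 9329917 counts, so that 1 count was worth 0.11 to 0.124 CPM. Rows of the ribosomal RNA locus took 17.9%, 17.2% and 10.1% of counts in OFF libraries and 12.1%, 11.3% and 16.2% in ON libraries. Mitochondrial rows took 6.52% to 7.68%. Of 5 genes listed for leukaemic identity, 3 were higher in OFF, namely Mpo (2.67-fold), Ptprc (1.57-fold) and Meis1 (1.29-fold). Hoxa9, a target of MLL fusions, did not pass, at 350 ± 14.7 CPM in OFF and 331 ± 6.03 CPM in ON (SD, n = 3 each), and Kit was too low to be tested. Erythroid markers summed to 578 to 934 CPM in OFF and 150 to 212 CPM in ON. Of the 8 in that list, 5 were tested and all 5 were higher in OFF, 4 of them globins. Mature neutrophil markers summed to 3420 to 8060 CPM in OFF and 2310 to 2470 CPM in ON, with 6 of 7 higher. Markers of B cells, megakaryocytes, and stromal and endothelial cells summed to at most 2.34, 2.64 and 11.4 CPM in any library. The erythroid, neutrophil and leukaemic identity lists moved with the groups in which the complex I genes were compared, and their part in the results was not tested.

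Promoters are shown for Ndufaf4, which had the largest change, for Ndufa12 and Ndufb11, the subunits with the largest fall and rise, and for Ndufb4, which holds the most copies of the NRF1 motif among the called genes. NRF1 (nuclear respiratory factor 1) and GABP are transcription factors known to act on nuclear genes of the respiratory chain. The sequences are from RefSeq on GRCm38.p6, 250 bases before to 50 after the start site, and capitals mark any match, on either strand, to the NRF1 motif (GCGC, any base, then TGCGC), to GGAAGTG (GABP), CACGTG (the E-box bound by MYC and related factors), TGACGTCA (the cyclic AMP response element), TTGCATCA (an amino acid response element bound by ATF4) or CCAAT (the CCAAT box).
Ndufaf4 (chr4:24897833-24898132, plus strand): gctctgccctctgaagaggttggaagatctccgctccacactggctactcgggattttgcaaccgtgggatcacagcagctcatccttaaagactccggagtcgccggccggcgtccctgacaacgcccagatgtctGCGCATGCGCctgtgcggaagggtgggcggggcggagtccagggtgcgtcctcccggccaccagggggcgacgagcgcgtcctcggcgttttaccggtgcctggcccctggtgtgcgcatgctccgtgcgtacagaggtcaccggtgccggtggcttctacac
Ndufa12 (chr10:94198785-94199084, plus strand): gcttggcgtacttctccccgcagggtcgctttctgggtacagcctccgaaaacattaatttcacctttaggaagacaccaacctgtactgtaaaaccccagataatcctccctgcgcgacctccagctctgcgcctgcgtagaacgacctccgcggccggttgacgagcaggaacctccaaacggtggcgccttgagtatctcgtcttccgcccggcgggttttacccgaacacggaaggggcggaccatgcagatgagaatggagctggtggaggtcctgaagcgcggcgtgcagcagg
Ndufb4 (chr16:37654319-37654618, minus strand): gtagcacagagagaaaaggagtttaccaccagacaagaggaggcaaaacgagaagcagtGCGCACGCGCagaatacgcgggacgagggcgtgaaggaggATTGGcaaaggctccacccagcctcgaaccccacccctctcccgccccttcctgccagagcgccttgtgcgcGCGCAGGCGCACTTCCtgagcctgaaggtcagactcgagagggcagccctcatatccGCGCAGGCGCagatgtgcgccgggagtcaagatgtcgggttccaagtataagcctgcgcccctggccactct
Ndufb11 (chrX:20617570-20617869, minus strand): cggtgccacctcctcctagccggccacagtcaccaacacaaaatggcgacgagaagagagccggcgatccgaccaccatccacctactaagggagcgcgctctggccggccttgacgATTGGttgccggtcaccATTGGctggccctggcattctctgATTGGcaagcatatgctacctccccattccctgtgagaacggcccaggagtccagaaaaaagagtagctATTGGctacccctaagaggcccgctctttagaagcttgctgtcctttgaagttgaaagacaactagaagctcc

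Promoters were found for 40 of the 45 members, 42 promoters in all. In the Ndufaf4 promoter the NRF1 letters begin 113 bases before the start site, and no E-box was found in the window. In Ndufb4 the NRF1 letters occur at 3 places, one of which shares its last base with a GABP match. In Ndufb11 the CCAAT box occurs 4 times, always on the opposite strand, and the Ndufa12 window held none of the motifs. That window lies inside the annotated Ndufa12 gene, which begins at 94198720, so the bases before this annotated start were not searched. The NRF1 motif was present in 10 of the 42 promoters (23.8%), against 4.6% of all 32851 promoters. GABP letters were found in 8 (19%, against 11%), the cyclic AMP response element in 3 (7.14%, against 1.79%), the E-box in 3 (7.14%, against 7.15%), the CCAAT box in 14 (33.3%, against 37.4%) and the amino acid response element in none (against 0.895%). Ndufa5 and Ndufa7 had overlapping windows, so the NRF1 site of Ndufa5 and the E-box of Ndufa7 were counted repeatedly. Base composition was not matched between these sets, and a match of letters is a description of the sequence only.

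Among the assembly factors of the matrix arm, Ndufaf4 and Ndufaf3 encode proteins that bind each other and, in human cells, help to build the ubiquinone-binding module. Ndufaf4 (GRCm38, chromosome 4, 24898083 to 24905001, plus strand) stood at 15.8, 12.03 and 11.6 CPM in OFF libraries and at 41.5, 40.7 and 40.2 CPM in ON libraries. The highest OFF value was far below the lowest ON value. The means were 13.1 ± 2.31 CPM in OFF and 40.8 ± 0.64 CPM in ON (SD, n = 3 each), a log2 fold change of -1.64 with an SE of 0.14 (adjusted p = 1.41e-06 by edgeR), and the call held in all 13 alternative settings, with log2 values of -1.79 to -1.55. No exon of another annotated gene overlaps it. Ndufaf3 (chromosome 9, 108565537 to 108567434, minus strand), its partner, had 72.3, 64.7 and 64.9 CPM in OFF and 77.1, 78.5 and 77.2 CPM in ON. The groups did not overlap, but the difference was small (log2 fold change -0.20, standard error 0.10, adjusted p = 0.144 by edgeR) and did not pass. The last exon of Ndufaf3 shares 48 bases with Impdh2 on the opposite strand, at the 3′ end of Ndufaf3. Impdh2, which makes guanine nucleotides, was lower in OFF (87.2 against 138 CPM in ON, log2 fold change -0.66, adjusted p = 6.67e-04 by edgeR), and without a known strand setting reads of both genes cannot be told apart there.

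Ndufaf6, Ndufaf5, Ndufaf8 and Ndufaf7 also act on matrix-arm modules in human cells. Ndufaf6, needed early in assembly, had 5.997, 3.79 and 4.62 CPM in OFF and 7.65, 8.09 and 6.33 CPM in ON. Its OFF values all lay below its ON values, and its log2 fold change of -0.62 (SE 0.22) passed with an adjusted p = 0.0424 by edgeR. This call was lost without any 1 of OFF replicates 2 and 3 and ON replicates 1, 2 and 3 (adjusted p = 0.0517 to 0.161). It was also lost by DESeq2 (0.0853) and with a replicate block. Ndufaf5 hydroxylates an arginine of the core subunit NDUFS7, and Ndufaf8 stabilises it. Ndufaf5 stood at 3.67, 4.46 and 3.85 CPM in OFF and at 5.94, 4.44 and 6.82 CPM in ON. Its OFF replicate 2 lay just above ON replicate 2, and it did not pass (log2 fold change -0.52, 95% interval -1.02 to -0.01, adjusted p = 0.105 by edgeR). Ndufaf8 had 36.2, 32.3 and 37.95 CPM in OFF and 43.7, 38.5 and 41.2 CPM in ON, without overlap but also without passing (-0.21, adjusted p = 0.171 by edgeR). Ndufaf7, a protein arginine methyltransferase, was the one assembly factor with a positive log2 fold change. It had 11.4, 10.8 and 13.2 CPM in OFF and 9.36, 8.43 and 10.05 CPM in ON (log2 fold change 0.35, 95% interval 0.00 to 0.69, adjusted p = 0.109 by edgeR).

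Ndufaf1 belongs to the assembly complex of the membrane arm, and Ndufaf2 is a relative of the subunit NDUFA12 that holds its place late in assembly, both known from human cells. Ndufaf1 was among the lowest members, at 3.89, 2.23 and 2.86 CPM in OFF and 3.997, 5.24 and 3.10 CPM in ON, where 20 to 46 counts lay behind each value. The groups overlapped (log2 fold change -0.46, standard error 0.29, adjusted p = 0.241 by edgeR). Ndufaf2 stood at 12.8, 8.80 and 4.95 CPM in OFF and at 11.9, 10.8 and 13.3 CPM in ON. The OFF libraries were widely spread, with replicate 1 among the ON values and replicates 2 and 3 below all of them, and the difference did not pass (log2 fold change -0.44, standard error 0.26, adjusted p = 0.22 by edgeR). Without OFF replicate 1 it passed (-0.80, adjusted p = 0.00627). Exons of Ndufaf2 share 1955 bases with the lincRNA B230220B15Rik on the opposite strand, a row too low to be tested.

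**Figure D2:**
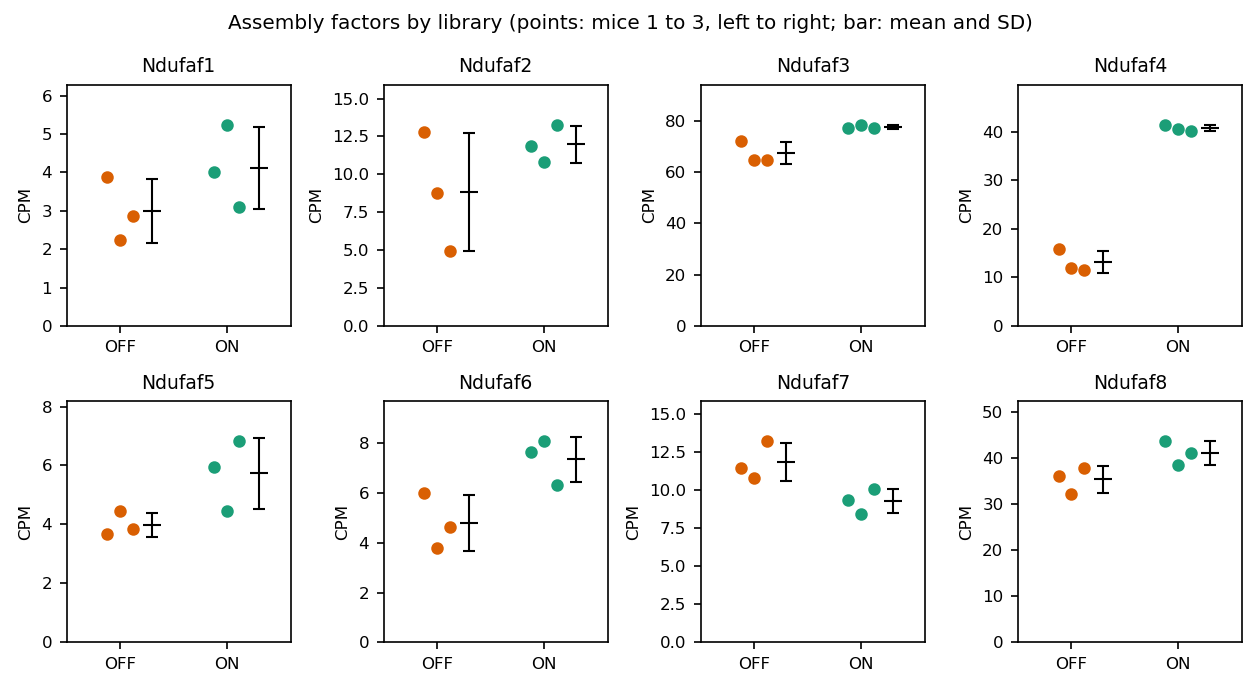
Level in CPM (vertical axes, each starting at 0) of the 8 assembly factors in OFF and ON libraries. Points are the 3 mice of each group and bars the mean and SD. Ndufaf4 separates the groups most widely, at 11.6 to 15.8 CPM in OFF and 40.2 to 41.5 CPM in ON, and Ndufaf2 has the widest spread among OFF libraries relative to its level.

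The 7 nuclear-encoded core subunits of the matrix arm did not pass in either direction. The log2 fold changes of the 6 described here ran from -0.12 to 0.02, and their 95% intervals reached from -0.42 to 0.25. Ndufs1, the largest iron-sulphur subunit, had 49.0, 53.7 and 44.9 CPM in OFF and 48.5, 50.3 and 48.9 CPM in ON, almost equal means (log2 fold change -0.0021, standard error 0.11, adjusted p = 0.992 by edgeR). Ndufv2, a flavoprotein subunit of the NADH-oxidising module, averaged 44.3 ± 1.45 CPM in OFF and 43.7 ± 2.41 CPM in ON (SD, n = 3 each). Ndufv1, which binds NADH and the flavin, had 49.5, 41.99 and 55.99 CPM in OFF and 50.2, 57.1 and 53.1 CPM in ON, which overlapped. The subunits next to the ubiquinone site showed similarly small differences. Ndufs3 had a log2 fold change of -0.12, Ndufs7 of -0.10 and Ndufs8 of -0.12. For Ndufs3, the processed pseudogene Gm12251 matches 226 of the last 300 transcript bases at 99.6% identity and held 36.3% as many counts, so the level of Ndufs3 is uncertain.

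Of the 9 accessory subunits counted with the matrix arm, 1 fell and 1 rose (22.2% called, against 34.8% of all tested rows). Ndufa12 (chromosome 10, 94198720 to 94221443, plus strand), added late to the matrix arm in human cells and the relative of Ndufaf2, stood at 72.0, 54.5 and 65.7 CPM in OFF and at 92.6, 93.3 and 90.3 CPM in ON. Every OFF library lay below every ON library. It fell to 64.0 ± 8.87 CPM in OFF, against 92.1 ± 1.56 CPM in ON (SD, n = 3 each), a log2 fold change of -0.52 (standard error 0.12, adjusted p = 0.00304 by edgeR) that was called in all 13 alternative settings. Ndufv3, a small subunit of the NADH-oxidising module, had 84.2, 89.7 and 89.8 CPM in OFF and 78.1, 71.9 and 64.5 CPM in ON. It was higher in every OFF library, with a log2 fold change of 0.30 (SE 0.11) and an adjusted p = 0.0468 by edgeR. This call was lost without OFF replicate 2 or any 1 of the ON libraries (adjusted p = 0.0594 to 0.25) by DESeq2 (0.0656) and with no filter on low counts (0.103). Ndufa9 and Ndufs6 were lower in every OFF library without passing, at 24.4 ± 1.05 CPM in OFF against 28.1 ± 0.19 CPM in ON and at 68.8 ± 5.25 CPM in OFF against 77.5 ± 2.92 CPM in ON (SD, n = 3 each). Ndufa2, with the highest mean CPM of all members, not a level per length (124 ± 9.47 CPM in OFF and 128 ± 3.14 CPM in ON, SD, n = 3 each), Ndufa5, Ndufa7 and Ndufs4 all lay within 0.05 of zero on the log2 scale, and Ndufa6 gave 0.15.

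The acyl carrier protein Ndufab1 (chromosome 7, 122085403 to 122101886, minus strand) is an accessory subunit of both arms and also carries acyl chains in mitochondrial fatty acid synthesis. It had 56.8, 50.5 and 56.4 CPM in OFF and 70.5, 74.4 and 80.4 CPM in ON, with no overlap. It fell to 54.5 ± 3.55 CPM in OFF, against 75.1 ± 4.996 CPM in ON (SD, n = 3 each), and the log2 fold change of -0.46 (standard error 0.11, adjusted p = 0.00443 by edgeR) was called in all 13 alternative settings. Ndufa4, which the symbol rule includes but which has been assigned to cytochrome c oxidase in human cells, averaged 43.0 ± 2.72 CPM in OFF and 41.8 ± 0.64 CPM in ON (SD, n = 3 each; log2 fold change 0.04, adjusted p = 0.8 by edgeR).

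Of the 19 accessory subunits of the membrane arm, 2 fell and 3 rose (26.3% called, against 34.8% of all tested rows). Ndufc2 (chromosome 7, 97400003 to 97407802, plus strand), which lies at the proximal part of that arm in human cells, stood at 79.5, 72.7 and 78.9 CPM in OFF and at 103, 112 and 100 CPM in ON. The OFF values again lay below all ON values, and the log2 fold change of -0.45 (standard error 0.11, adjusted p = 0.0043 by edgeR) was called in all 13 alternative settings. Ndufb4, of the distal part, had 27.1, 28.8 and 32.6 CPM in OFF and 37.8, 35.3 and 37.1 CPM in ON. Its fall (log2 fold change -0.32, standard error 0.12, adjusted p = 0.0486 by edgeR) was close to the threshold. It was called in 2 of the 13 alternative settings, those with DESeq2 size factors and without OFF replicate 3, and without any 1 of the other libraries the adjusted p was 0.104 to 0.155.

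In the other direction, Ndufb11 (chromosome X, 20615326 to 20617619, minus strand), a small subunit with a membrane span, stood at 83.7, 86.8 and 98.9 CPM in OFF and at 69.5, 68.1 and 66.1 CPM in ON. It rose to 89.8 ± 8.02 CPM in OFF, against 67.9 ± 1.72 CPM in ON (SD, n = 3 each; log2 fold change 0.40, standard error 0.11, adjusted p = 0.00948 by edgeR), a call lost without ON replicate 3 (0.062). Ndufa13, also known as GRIM-19 and studied as a cell death regulator, had 60.3, 65.9 and 79.4 CPM in OFF and 54.0, 51.9 and 54.3 CPM in ON. Ndufa3, a short membrane subunit, had 66.4, 69.6 and 81.8 CPM in OFF and 64.4, 55.8 and 51.1 CPM in ON. Neither gene overlapped between groups, and OFF replicate 3 was the highest library for both. Ndufa13 rose by 0.36 (SE 0.12, adjusted p = 0.0291 by edgeR), a call lost without any 1 of the libraries other than OFF replicate 1 (adjusted p = 0.0508 to 0.121). Ndufa3 rose by 0.35 (SE 0.12, adjusted p = 0.0394 by edgeR), a call lost without any 1 of OFF replicates 2 and 3 and ON replicates 2 and 3 (0.0578 to 0.21). Its call was also lost by DESeq2 (0.0545) and with a replicate block. Exons of Ndufa3 share 4 bases at its 3′ end with Tfpt on the opposite strand, whose mean was 3.58 CPM in OFF and 5.11 CPM in ON.

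**Figure D3:**
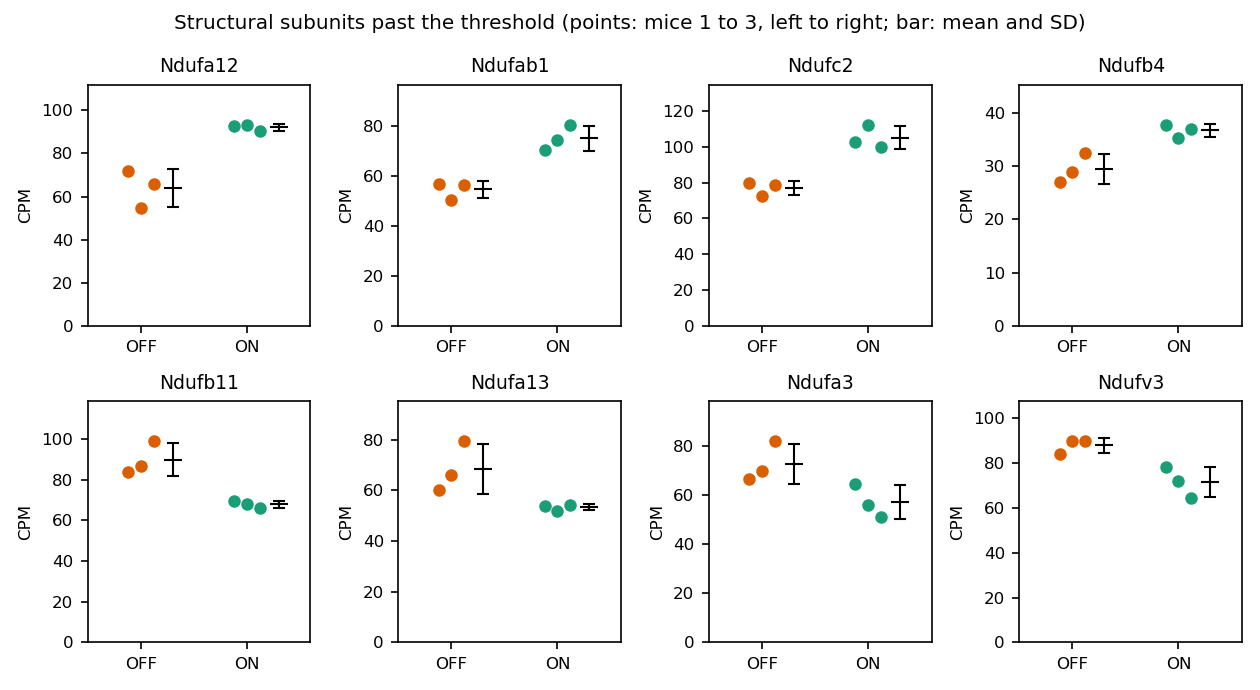
Level in CPM (vertical axes, each starting at 0) of the 8 structural subunits that passed the threshold, in OFF and ON libraries, with the 4 that fell in the upper row and the 4 that rose in the lower row. Points are the 3 mice of each group and bars the mean and SD. No panel has an OFF value among the ON values, and OFF replicate 3 is the highest OFF library in all 4 panels of the lower row.

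The other 14 membrane-arm subunits did not pass, with log2 fold changes from -0.21 (Ndufa10, an accessory subunit related to nucleoside kinases) to 0.24 (Ndufb3). Ndufa10 was lower in every OFF library, at 83.9 ± 1.49 CPM in OFF against 97.0 ± 2.50 CPM in ON (SD, n = 3 each), but did not pass (adjusted p = 0.122 by edgeR). Ndufb8, one of the 3 members with the highest mean CPM, had 99.8 ± 7.08 CPM in OFF and 108 ± 3.31 CPM in ON (SD, n = 3 each). Ndufb10 and Ndufc1 differed little, with log2 fold changes of -0.02 and -0.07. Relative to their mean, Ndufb3 and Ndufa1 varied most among OFF libraries of these 14. Ndufb3 stood at 61.0, 88.0 and 101 CPM in OFF and at 72.9, 65.6 and 73.8 CPM in ON. Ndufa1 stood at 32.1, 43.7 and 52.0 CPM in OFF and at 36.5, 35.0 and 39.7 CPM in ON. In both genes OFF replicate 1 lay below the ON libraries and the other two OFF libraries above them, and without OFF replicate 1 each passed as higher (adjusted p = 0.00622 and 0.0227 by edgeR). For Ndufs5, the processed pseudogene BC002163 matches 186 of the last 300 transcript bases at 100% identity and held 27.8% as many counts. Ndufb6 and Ndufb2 share 257 and 146 bases at their 3′ ends with Smim27 and Braf on the opposite strand, so the levels of these 3 subunits are uncertain, as is that of Ndufa2, which shares 66 such bases with Tmco6.

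OFF replicate 3 was the highest of the OFF libraries in 25 of 37 structural subunits (67.6%), against 39.2% of all tested rows, 2 of 8 assembly factors and 32 of 38 nuclear subunits of complexes II to V (84.2%). Among membrane-arm accessory subunits this was so in 16 of 19. The same library had the lowest share of ribosomal RNA locus counts, 10.1%, and the highest summed level of neutrophil markers, 8060 CPM. The part of these differences in the higher subunit levels of this library was not tested. Leaving out OFF replicate 3 gave 4 subunits lower and 2 higher, and 1 assembly factor lower.

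A list of 14 further assembly factors outside the Nduf symbols gave 13 tested genes, with a median log2 fold change of -0.22. Of these, 4 fell (Ecsit, Tmem70, Tmem126a and Tmem186) and 1 rose (Lyrm2). That is 38.5% called, against 34.8% of all tested rows, and 30.8% lower, against 17.5%. Ecsit, which in human cells works with NDUFAF1 in building the membrane arm, had 6.33, 6.01 and 6.71 CPM in OFF and 13.4, 11.3 and 13.9 CPM in ON. The OFF values were about equal and all far below the ON values (log2 fold change -1.01, standard error 0.17, adjusted p = 3.59e-04 by edgeR, called in all 13 alternative settings). Tmem70, which in human cells is needed for ATP synthase and also bears on complex I, had 13.1, 15.1 and 18.9 CPM in OFF and 26.2, 26.8 and 24.2 CPM in ON (-0.71, adjusted p = 0.00177 by edgeR, called in all 13). Tmem126a, a factor of the distal membrane arm, averaged 18.2 ± 0.63 CPM in OFF and 24.3 ± 0.09 CPM in ON (SD, n = 3 each; -0.42), a call lost without OFF replicate 2 or any 1 ON library (adjusted p = 0.054 to 0.0555 by edgeR). Tmem186, a partner of Ecsit, gave -0.67 (adjusted p = 0.0483 by edgeR), a call lost without any 1 library other than OFF replicate 1 (0.0552 to 0.164). Its call was also lost by DESeq2 (0.0989), with low counts kept (0.0502), with ribosomal RNA rows left out of library sizes (0.0532) and with a replicate block. Lyrm2, which aids the NADH-oxidising module, rose to 16.6 ± 2.91 CPM in OFF, against 10.2 ± 2.39 CPM in ON (SD, n = 3 each; 0.69), a call lost without OFF replicate 2, ON replicate 2 or ON replicate 3 (0.0532 to 0.0671). The partners Acad9 and Tmem126b, which sit in the same human assembly complex as Ecsit, gave -0.02 and 0.10 without passing.

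Of the 7 complex I subunits encoded by the mitochondrial genome, 3 fell and none rose. That is 42.9%, whereas 34.8% of all tested rows were called and 17.5% were lower. The median log2 fold change was -0.06, and 0.09 without OFF replicate 3. The 3 were mt-Nd2, mt-Nd3 and mt-Nd4l, all subunits of the proximal membrane arm. Levels of mt-Nd2 were 2373, 2261 and 1523 CPM in OFF and 3309, 2787 and 2743 CPM in ON (log2 fold change -0.52, adjusted p = 0.0168 by edgeR). For mt-Nd3 they were 411, 539 and 513 CPM in OFF and 654, 646 and 564 CPM in ON (-0.35, adjusted p = 0.0287 by edgeR). For mt-Nd4l they were 94.6, 103 and 78.4 CPM in OFF and 141, 115 and 125 CPM in ON (-0.46, adjusted p = 0.00901 by edgeR). No OFF value of the 3 genes reached the lowest ON value. All 3 calls were lost without ON replicate 1 (adjusted p = 0.0839 for mt-Nd2, 0.13 for mt-Nd3 and 0.0676 for mt-Nd4l, by edgeR), and that of mt-Nd3 also without OFF replicate 1 or ON replicate 2. In the authors' deposited log2 table, tested with limma, mt-Nd2 and mt-Nd3 did not pass (adjusted p = 0.0783 and 0.074). The nuclear pseudogenes Gm28438 and Gm10222 match 297 and 294 of the last 300 bases of mt-Nd3 and mt-Nd4l at 100% identity. They held 29314 counts beside 29150 for mt-Nd3 and 5746 beside 5747 for mt-Nd4l, so the levels of both subunits are uncertain. For mt-Nd2, Gm13339 matches at 96.7% identity and held 5.99% as many counts. At its 3′ end mt-Nd4l also shares 7 bases with mt-Nd4 on the same strand. The level of mt-Nd4 was far higher, and it did not pass (log2 fold change 0.06). The part of mt-Nd4 reads in the mt-Nd4l row was not tested. The other 4 did not pass. mt-Nd1 averaged 2389 ± 117 CPM in OFF and 2285 ± 57.2 CPM in ON, and mt-Nd4 averaged 4341 ± 647 CPM in OFF and 4160 ± 347 CPM in ON (SD, n = 3 each). mt-Nd5 and mt-Nd6, whose ends overlap by 14 bases on opposite strands, gave -0.06 and 0.20. mt-Nd6 passed as higher without OFF replicate 1 (adjusted p = 0.0417 by edgeR).

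Nuclear subunits of complexes II to V, the remainder of the respiratory chain and the ATP synthase, had 7 of 38 genes that fell (18.4%, against 17.5% of all tested rows) and no gene that rose. Their median was -0.04, the same to 2 decimals as that of the complex I subunits. The 5 with the smallest p were Atp5g1 (-0.74), Uqcrq (-0.69), Atp5b (-0.54), Cyc1 (-0.60) and Atp5g3 (-0.36). The call of Atp5g3 was lost without OFF replicate 2 or ON replicate 2 (adjusted p = 0.0564 to 0.0669 by edgeR). Atp5g1 and Atp5g3 encode the same c subunit of the ATP synthase rotor, Atp5b its catalytic beta subunit, and Uqcrq and Cyc1 are subunits of complex III. Atp5g2, the other Atp5g gene of the list, was higher in every OFF library without passing. Its mean was 190 CPM in OFF and 163 CPM in ON (log2 fold change 0.22, adjusted p = 0.12 by edgeR). Without OFF replicate 3 the list gave 11 lower and 1 higher. Of 12 tested regulators of mitochondrial gene expression, 3 fell (25%, against 17.5% of all tested rows) and none rose, with a median of -0.23. Pprc1, a coactivator related to PGC-1, had 5.55, 3.12 and 3.30 CPM in OFF and 10.4, 11.3 and 9.303 CPM in ON (log2 fold change -1.37, standard error 0.23, adjusted p = 3.58e-04 by edgeR). Lrpprc, which stabilises mitochondrial mRNAs, averaged 35.2 ± 1.51 CPM in OFF and 55.8 ± 1.46 CPM in ON (SD, n = 3 each; -0.66), and the mitochondrial DNA helicase Twnk gave -0.75 (adjusted p = 0.0282 by edgeR), a call lost without OFF replicate 1, ON replicate 2 or ON replicate 3 (0.0545 to 0.126) and by DESeq2 (0.0582). Nrf1 and Gabpa, the genes of the factors whose motifs were searched, gave -0.09 and -0.29 without passing (adjusted p = 0.591 and 0.0977 by edgeR). Ppargc1a and Ppargc1b were too low to be tested, at no more than 0.77 CPM in any library.

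**Figure D4:**
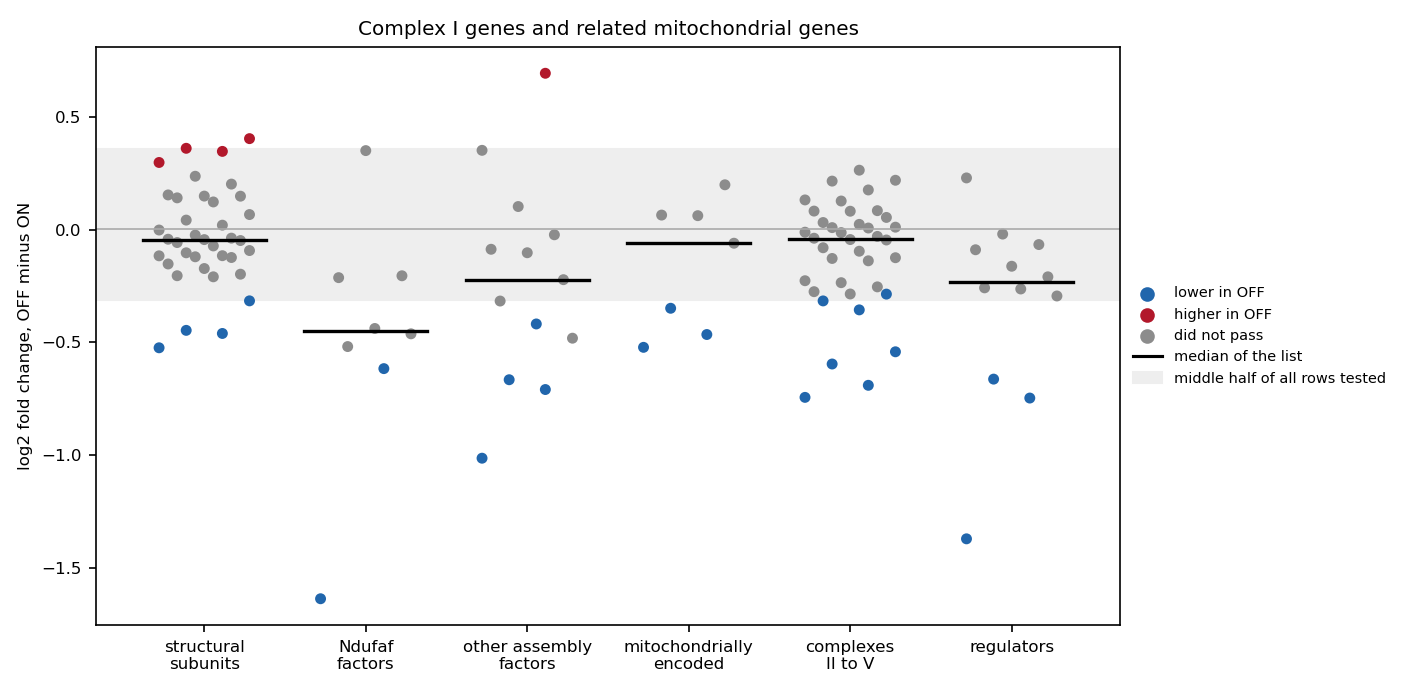
Log2 fold change, OFF minus ON (vertical axis), of each tested gene (points) in the 6 groups named on the horizontal axis. Black lines are the medians, which are -0.04 for structural subunits, -0.45 for Ndufaf factors, -0.22 for other assembly factors, -0.06 for mitochondrially encoded subunits, -0.04 for complexes II to V and -0.23 for regulators, and the grey band spans the quartiles of all tested rows, -0.31 and 0.36.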

How the data were processed

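Per the labels' protocols, TriZol and a column kit with a DNase step gave the RNA for Lexogen QuantSeq 3' libraries, so a count reflects reads near a gene's 3′ end and CPM were not divided by gene length; an order of genes by CPM is therefore not one of level per length. The authors' tools, per the submitters' processing notes, included HISAT2 2.0.4 and cutadapt 1.9.1 for build mm10, featureCounts from Subread 1.6.3, and limma 3.42.2 under R 3.6.1. The annotation, the strand setting and the treatment of multi-mapping reads were not given in the sources used here. In all, the authors' deposited table held raw counts in 54838 rows, of which 1105 had no name and were left out (0.145% to 0.172% of counts). The authors' deposited log2 table, normalised by them, held 12287 rows and served as an alternative.

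The fit used edgeR 4.0.16 under R 4.3.3: filterByExpr (minimum count 10, minimum total 15), TMM, robust dispersions, glmQLFit and glmQLFTest, OFF minus ON, no covariate, Benjamini-Hochberg adjustment over 13652 rows at 0.05. SE is the fold change divided by the square root of F; 95% intervals use the model's degrees of freedom. For 3 mice a group, the smallest two-sided p of an exact permutation test is 0.1. Alternatives used DESeq2 1.42.0, limma 3.58.1, other filters and scalings, a replicate block and each library left out. The test was checked on counts simulated with the dispersions fitted to these data, with far fewer rows changed than were called here. Such a check cannot show that the model holds for the real counts. Within each group, libraries varied beyond sampling noise (chi-square per degree of freedom 2.98 to 39.5). A count of 0 allows up to 3 counts, at most 0.372 CPM; such limits cover counting error only.

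Coordinates are from GENCODE M21 on GRCm38, the assembly of mm10, and all 45 members were found there. One member entered all counts, sums and medians but its own values are not reported here. Near copies were sought by aligning the last 300 transcript bases (at least 100 bases at 95% identity, same strand). The members, the gene lists and the places of subunits in the complex, taken from the human enzyme, were chosen with earlier results of these data known. Genes named were every assembly factor, every called subunit, the subunits with the highest levels and the smallest changes, the mitochondrially encoded subunits and, of other lists, up to 5 called genes with the smallest p; others were named after their values were seen. Markers of B cells (1 of 1 tested higher), stromal and endothelial cells (0 of 1 called) and megakaryocytes (0 tested) were too low to be read further.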

Additional observations from a re-analysis of the deposited data

How the results depend on the processing

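Ndufaf4, Ndufa12, Ndufab1 and Ndufc2 were called with the same direction in all 13 alternative settings; the other 6 called members lost their call in at least 1. The number of structural subunits higher in OFF was 4, against 2 with DESeq2 and 2 with a replicate block, and ranged from 0 to 6 with single libraries left out; the number lower ranged from 3 to 4. The number of Ndufaf factors lower was 2, against 1 with DESeq2, 1 with a minimum of 10 CPM in 3 libraries (where 3 factors were not tested) and 1 with a replicate block, and 1 to 3 on leaving out each library. On leaving out each library, other assembly factors gave 2 to 4 lower and 0 to 1 higher, mitochondrially encoded subunits 0 to 3 lower and 0 to 1 higher, and complexes II to V 4 to 11 lower and 0 to 1 higher. Mitochondrially encoded subunits gave 1 lower in the authors' deposited log2 table. Complexes II to V gave 1 higher with a minimum of 10 CPM, with ribosomal RNA rows left out of library sizes and in the authors' table. Regulators gave 1 lower with a minimum of 10 CPM (where Pprc1 and Twnk were among the genes not tested) and 2 to 4 on leaving out each library. Uqcrc1, 0.08 and not called with all libraries, ranged from -0.261 without OFF replicate 3 (adjusted p = 0.0387 by edgeR) to 0.246 without OFF replicate 2. Unless stated, the cause was not tested. With a replicate block 6 members were called, all among the 10 called without it. Same-numbered OFF and ON libraries did not deviate together (correlations 0.0425, -0.0989 and -0.0646), so the numbers were not taken as pairs. The lowest members, Ndufaf1 and Ndufaf5, rest on 20 to 55 counts a library, where a change like those of the called subunits may not be detectable.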

Other observations

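Rows with the Nduf prefix outside the symbol rule numbered 2. Ndufa4l2, a relative of Ndufa4 known as a gene induced by hypoxia, stood at 5.22, 3.68 and 3.63 CPM in OFF libraries and at 5.37, 9.23 and 6.08 CPM in ON libraries. The highest OFF value was just below the lowest ON value, and the log2 fold change was -0.72 (SE 0.26, adjusted p = 0.0386 by edgeR). This call was lost without any 1 of OFF replicates 2 and 3 and ON replicates 2 and 3 (0.0571 to 0.249). It was also lost by DESeq2 (0.0619) and with a replicate block. Ndufab1-ps, annotated by its symbol as a pseudogene of Ndufab1, had 7.55, 10.6 and 8.25 CPM in OFF and 11.99, 11.5 and 11.04 CPM in ON, lower in every OFF library but not called (-0.39, adjusted p = 0.0933 by edgeR; 0.045 without OFF replicate 2).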
